A study of Mus musculus with 4 samples.

Results

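The endothelial cells of irradiated mouse hindlimb muscle were split by their level of Cdkn1a, and those with the most Cdkn1a were compared with those with the least. All cells came from a single library, IR 24-hours. A barcode was taken as endothelial with at least 2000 unique molecular identifiers (UMIs, counted RNA molecules), at most 20% mitochondrial UMIs, at least 3 UMIs of Pecam1, Cdh5, Egfl7 and Cldn5 together, and 0 UMIs of Ptprc, Pdgfra and Pax7. This gate held 1100 of the 2763 barcodes of the library, and the whole series has 7086. The cells were ranked by Cdkn1a UMIs per 10000 UMIs of the cell, and divided evenly into a Cdkn1a-high group of 366 cells, a middle group of 368 and a Cdkn1a-low group of 366, so 732 cells were compared. The groups were chosen by measured Cdkn1a UMIs, so the difference in Cdkn1a itself is a description only. Ratios are those of the high over the low group.

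The mice were male C57Bl/6J, and 1 hindlimb received 3 X-ray fractions of 8.2 Gy at 5 weeks of age under lead shielding of the remaining body. Limbs were taken 24 hours after the last fraction (IR 24-hours) or 56 days after irradiation (IR 56-days), and the shielded opposite limbs gave the libraries CON 24-hours and CON 56-days. The control limbs thus came from irradiated animals. Cells of 3 limbs were pooled per library before live mononucleated cells were sorted, and nothing in the labels ties a cell to a mouse. With 1 library per group there is no replicate and no test. Each range in parentheses after a level, share or ratio is an exact 95% interval that covers counting error only, since cells of 1 library are not replicates.

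Cdkn1a encodes p21, an inhibitor of cyclin-dependent kinases that holds cells before DNA replication. DNA breaks activate the kinases Atm and Chek2, which stabilise the transcription factor p53. p53 then induces Cdkn1a together with genes for its own restraint, such as Mdm2, and with genes of cell death, repair and metabolism. Endothelium lines every vessel, and its capillary, arterial and venous cells differ in the genes they express.

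p53 binds DNA as pairs of a half-site, and the sequences below show where such a half-site stands in the promoters of Cdkn1a and of target genes described here. RefSeq promoter windows on GRCm38.p6 were searched, each from 250 bases before to 50 bases after a gene's start. The p53 half-site, which reads alike on both strands, has 10 bases. It was found in at least 1 window of 9.55% of 27025 genes. Of the 35 p53 target genes listed for this comparison 26 had a window, and 11 of those (42.3%) held a half-site. Cdkn1a itself, on chromosome 17, had 2 windows, of which the first held half-sites starting 73 and 51 bases before the gene's start. The nearer one is shown. The stretches below run 5′ to 3′ on the strand of the gene and lie upstream of its start, with the half-site in capitals.
Cdkn1a: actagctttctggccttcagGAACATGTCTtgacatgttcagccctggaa
Mdm2: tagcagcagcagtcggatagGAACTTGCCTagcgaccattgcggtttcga
Ccng1: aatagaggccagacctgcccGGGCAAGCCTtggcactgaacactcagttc
Bax: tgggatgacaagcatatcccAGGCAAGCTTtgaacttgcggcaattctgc
Ckap2: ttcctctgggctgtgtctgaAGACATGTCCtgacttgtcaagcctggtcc
Rps27l: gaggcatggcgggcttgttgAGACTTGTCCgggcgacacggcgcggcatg
Their positions are chr17:29090908-29090957 (plus strand) for Cdkn1a, chr10:117710915-117710964 (minus) for Mdm2, chr11:40755442-40755491 (minus) for Ccng1, chr7:45467070-45467119 (minus) for Bax, chr8:22185993-22186042 (minus) for Ckap2 and chr9:66946286-66946335 (plus) for Rps27l. A match describes the letters of the window and is not a measured binding site. Other listed targets with a half-site are not shown, among them Gadd45a, Sesn1 and Polk, whose ratios given below lie near or under 1. The 11 listed targets with a half-site had a median log2 ratio of 0.63, with 9 above 0 and the lowest at -0.34. The 12 measured targets with a window but no half-site had 0.59, with all 12 above 0.

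Cdkn1a varied as a single broad hump in the irradiated endothelium, with no gap at which to divide it. The median cell had 22.1 Cdkn1a UMIs per 10000, the highest had 91.8, and 29 cells (2.64%) had 0. In the control library of the same time 180 of 347 gated cells (51.9%) had 0, and in CON 56-days 385 of 565 (68.1%). IR 56-days lay between, with 51 of 368 cells (13.9%) at 0 and a median of 11.8 per 10000. The high, middle and low groups of IR 24-hours had medians of 36.7, 22.1 and 9.59 per 10000. At the edges, the lowest cell of the high group had 28.45 and the next cell below it 28.42, while the highest cell of the low group had 15.94 and the next above it 15.95. Summed over cells, the high, middle and low groups held 7049, 4234 and 1626 Cdkn1a UMIs. That is 3911, 2210 and 933.5 UMIs per 1000000 UMIs of all other genes (CPM), beside 315.4 CPM (289.5 to 342.9) in the CON 24-hours endothelium. The low group was therefore low only within the irradiated library. CPM is not scaled to gene length, so levels of different genes are not compared.

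**Figure D1:**
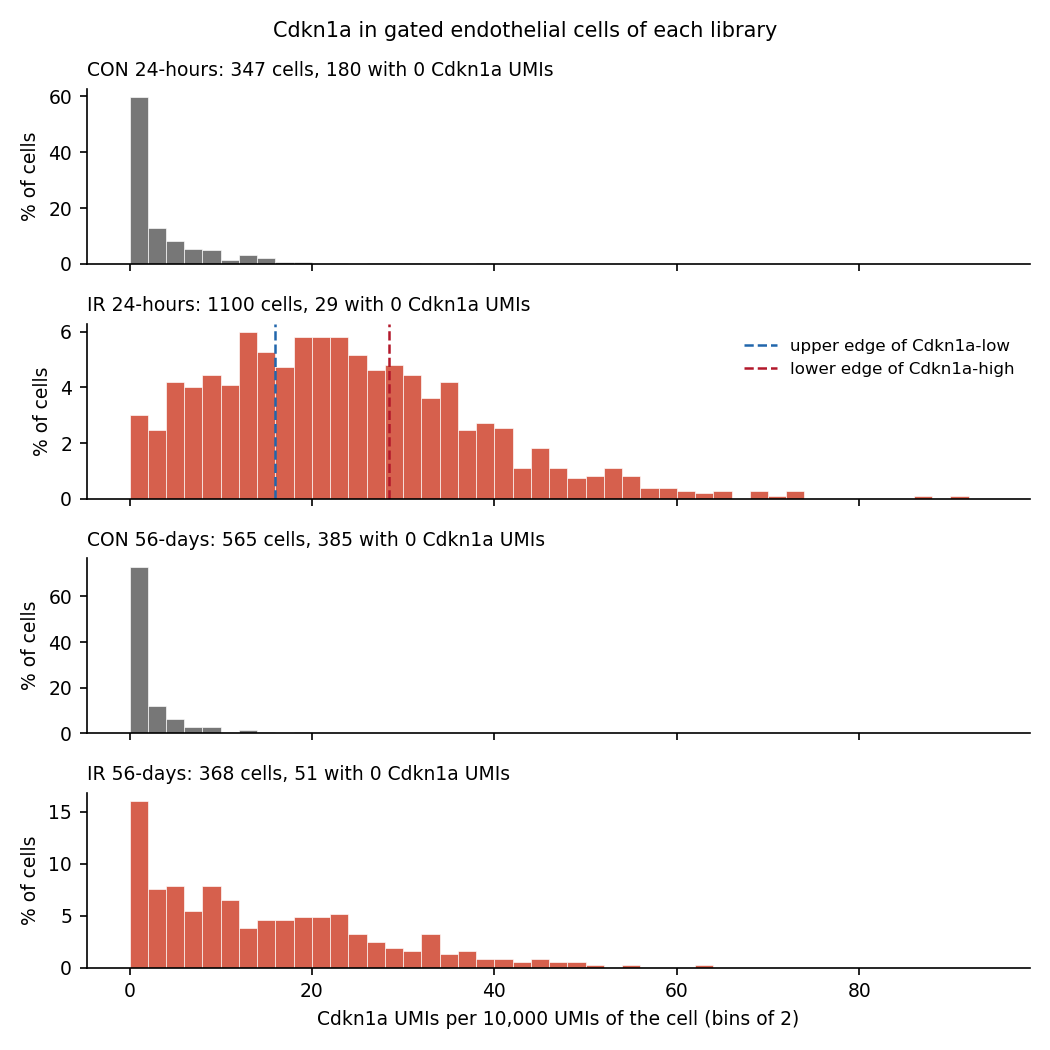
Cdkn1a UMIs per 10,000 UMIs in each gated endothelial cell, as the percent of cells per bin of 2, for the 4 libraries (each panel has its own vertical scale). In IR 24-hours the cells form 1 broad hump around a median of 22.1, and the dashed lines mark the edges of the low and high groups at 15.94 and 28.45.

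Part of a cell's rank is counting error. After each cell was thinned to 2000 UMIs, Cdkn1a had a mean of 4.75 and a variance of 10.7 UMIs per cell, a variance 2.25 times the mean. Ranked again on the thinned counts, 280 of the 366 cells of the high group (76.5%) and 292 of the low group (79.8%) stayed in place. In that ranking 6 went from high to low and 1 from low to high. The thinned counts are a part of the counts that set the groups, so some agreement is built in. The share that stayed therefore does not measure how much of the rank is counting error. Depth was close between the groups, with median UMIs per cell of 4187, 4190.5 and 3949.5 from high to low and 1214.5, 1207 and 1198.5 genes per cell at 2000 UMIs. The median mitochondrial share differed, at 3.20%, 3.62% and 4.20%.

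The endothelial label held for each group, but the gate also let in RNA of other cell types, and this RNA was uneven between them. The gate required its 4 genes together, so their presence in each group was fixed by the rule. Cdh5, the junction cadherin of endothelium, had 2113, 2003 and 1657 CPM from high to low, and Pecam1 had 1343, 1376 and 1436. Egfl7 had 2342, 2247 and 2162 CPM. Cldn5 had 742.9, 737.1 and 1068 CPM, a ratio of 0.695 (0.648 to 0.746). Endothelial markers that the gate did not use were alike, with a median log2 ratio of 0.11 over 6 measured genes. Pericyte markers summed to 794.5, 1511 and 2376 CPM, smooth muscle markers to 59.4, 217.7 and 559.7, and fibroblast markers to 164.8, 571.6 and 1884. Haemoglobin genes summed to 428.3, 714.7 and 3891 CPM, and tendon genes, a list added after values were seen, to 3.33, 144.6 and 535.6. At 2000 UMIs of depth 6 cells of the low group and 0 of the high group held at least 10 tendon UMIs, while 26 and 14 held at least 10 pericyte UMIs. From high to low, 2, 4 and 3 cells held at least 10 haemoglobin UMIs, and 1, 2 and 6 held at least 10 fibroblast UMIs. Macrophage markers stayed at 3.33, 2.09 and 3.45 CPM, with 1 of 5 at 0, and T cell markers at 0, 0.522 and 0.574, with 3 of 4 at 0. Cells with RNA of another type, counted after thinning, made up 13.7% (10.3 to 17.6) of the high, 20.9% (16.9 to 25.4) of the middle and 17.5% (13.7 to 21.8) of the low group. The leading counts below are therefore also given without these 191 cells. The split then has 303 cells against 303, and a narrower split keeps only the capillary-type cells of those, 152 against 152. CON 24-hours has 44 such cells of 347.

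Across all other genes the contrast was wide but shallow, with a longer tail of lower genes. Of 7945 genes with at least 50 UMIs in both groups together, 356 (4.48%) were at least 1.5-fold higher in the high group and 503 (6.33%) at least 1.5-fold lower. At 2-fold 44 were higher and 213 lower. The median gene had a log2 ratio of 0.04. Without the cells with other-type RNA the counts were 348 higher (4.94%) and 331 lower (4.7%) of 7049. In capillary-type cells alone they were 241 (5.04%) and 189 (3.95%) of 4781. Of the 356 higher genes 286 were still measured without other-type cells, and 206 of those stayed past 1.5-fold. Of the 503 lower genes 300 were still measured and 223 stayed. Fewer stayed in capillary-type cells: 46 of 139 measured higher genes and 31 of 85 measured lower genes.

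**Figure D2:**
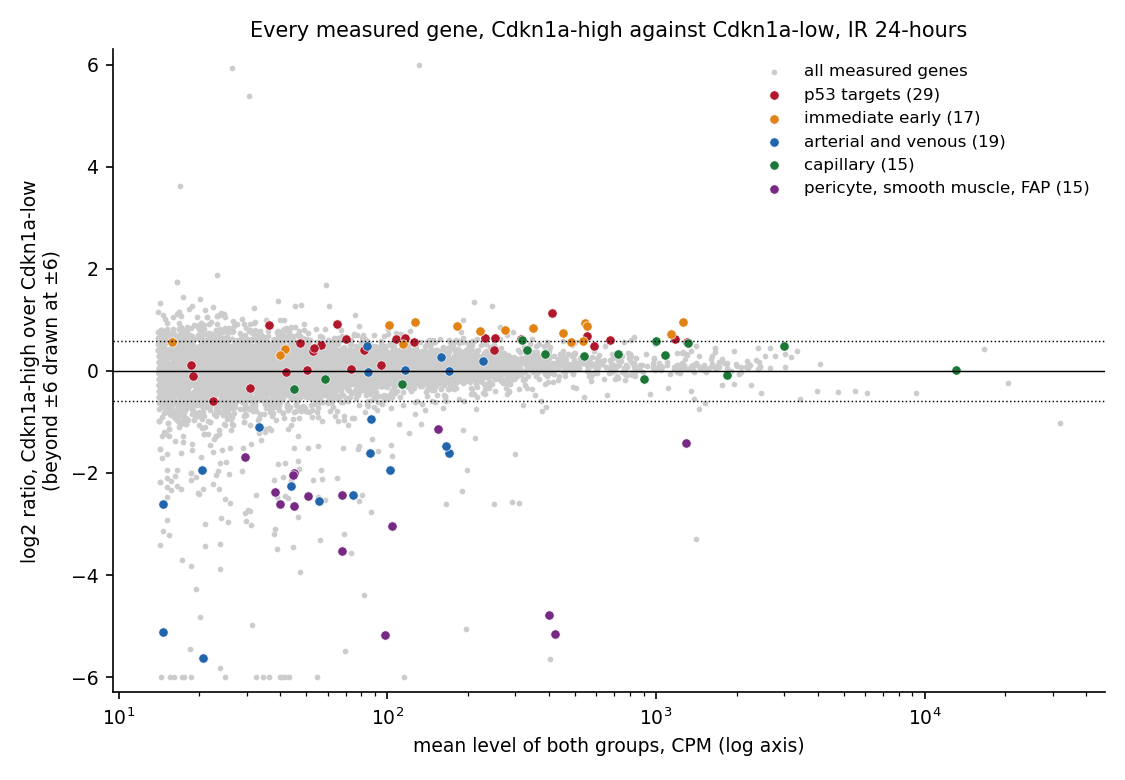
Log2 ratio of high to low group for each of the 7945 measured genes (vertical) against the mean level of both groups in CPM (horizontal, log axis), with gene lists in colour and dotted lines at 1.5-fold. Of the measured members 25 of 29 p53 targets and 17 of 17 immediate early genes sit above the zero line, beside 56.1% of all genes. Below the lower dotted line sit 7 of 11 arterial, 6 of 8 venous and 7 of 7 pericyte genes, beside 6.33% of all genes.

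Other p53 targets followed Cdkn1a in the same direction, mostly by modest amounts. Of 35 listed targets 29 were measured. In the high group 25 of the 29 were higher by any amount beside 56.1% of all genes, 12 by at least 1.5-fold beside 4.48% of all genes, and 1 was lower by that fold beside 6.33%. Their median log2 ratio was 0.55 (middle 50% of members 0.12 to 0.63), against 0.04 for all genes. The median was 0.53 without other-type cells, with 10 of 29 past 1.5-fold higher. In capillary-type cells it was 0.33, with 4 of 24. The 1.5-fold line runs through the group, so the count is fragile: in cells thinned to 2000 UMIs 6 of 24 passed it beside 4.62% of all genes, and with 550 cells compared with 550, none left between, 3 of 31 beside 2.54%. Summed, the targets had 8357, 7470 and 5548 CPM from high to low and 2723 in the control endothelium. At 2000 UMIs of depth, 340 of 366 high, 314 of 368 middle and 212 of 366 low cells held at least 10 UMIs of these genes.

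Among the targets that restrain p53 or the cell cycle, 5 of 11 measured genes were past 1.5-fold higher, beside 4.48% of all genes, and 10 were above 0, beside 56.1%. Mdm2, whose protein marks p53 for destruction, had 280.7, 273.0 and 180.8 CPM in the high, middle and low group, a ratio of 1.55 (1.35 to 1.79). Ccng1, the cyclin G1 gene, had 307.4, 244.8 and 196.9 CPM and a ratio of 1.56 (1.36 to 1.79). The middle group of Mdm2 thus lay beside the high group and that of Ccng1 midway. Btg2, an antiproliferative gene, was 1.52-fold higher (1.40 to 1.65) and kept 1.55 in capillary-type cells. Plk3, a polo-like kinase of the stress response, had 85 and 44 UMIs in the high and low group and a ratio of 1.87 (1.28 to 2.75). Ckap2, a spindle protein gene, was 1.90-fold higher (1.43 to 2.52), but 0.991 (0.646 to 1.52) in capillary-type cells. Gadd45a, a growth arrest gene, had a ratio of 0.938 (0.563 to 1.56).

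The death genes behaved alike, with 4 of 9 past 1.5-fold higher and 8 above 0, beside the same 4.48% and 56.1% of all genes. Bax, which permeabilises mitochondria in apoptosis, had 1429, 1273 and 923.1 CPM and a ratio of 1.55 (1.45 to 1.65). Aen, an apoptosis-enhancing nuclease, was 1.57-fold higher (1.28 to 1.93) and Ei24 1.55-fold (1.37 to 1.75). Fas, a death receptor, had 84.9, 69.4 and 55.1 CPM and a ratio of 1.54 (1.19 to 2.01). Tnfrsf10b, another death receptor, had a ratio of 0.979 (0.701 to 1.37). Bbc3, which encodes the PUMA protein, had 1.41 (1.06 to 1.90). Pmaip1 had 29 and 8 UMIs, too few to count as measured.

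The repair and metabolism genes were the most mixed, with 3 of 9 past 1.5-fold higher and 1 lower, beside 4.48% and 6.33% of all genes. Gdf15, a secreted stress cytokine, had the largest ratio of the measured targets: 563.1, 521.5 and 257.2 CPM, a ratio of 2.19 (1.96 to 2.45). Gdf15 lies on chromosome 8 and was the single target past 2-fold. Phlda3, a repressor of Akt signalling, had 680.2, 566.4 and 423.7 CPM and a ratio of 1.61 (1.46 to 1.76). Sesn2, a sestrin of the metabolic stress response, was 1.53-fold higher (1.24 to 1.90), while its relative Sesn1 had 0.789 (0.530 to 1.17). Rps27l, a ribosomal protein-like gene, was 1.49-fold higher (1.40 to 1.58). The nucleotide excision gene Xpc was the 1 target past 1.5-fold lower, with 32 and 47 UMIs and a ratio of 0.658 (0.406 to 1.05), an interval that includes 1. Polk and Ercc5, of DNA polymerase and excision repair, had ratios of 1.08 (0.869 to 1.35) and 1.02 (0.793 to 1.31). The genes above p53 were not uniform: of 7 measured, Chek2 was past 1.5-fold at 1.62 (1.27 to 2.08), Mdm4 had 1.36 (1.17 to 1.58) and Atm 0.743 (0.480 to 1.15).

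Even the low group expressed most of these targets above the endothelium of the shielded limb. Of the 29, 22 had a low group above the CON 24-hours level with an interval beyond 1, and 24 had such a high group. The median ratio to control was 2.21 for the low and 3.12 for the high group. No share or median over all genes is given for the comparison with control, so these counts and medians stand without a background. Gdf15 had 17 UMIs (9.80 CPM) in all 347 control cells, so the low group was 26.2-fold (16.2 to 45.5) and the high group 57.4-fold above control. Ccng1 was 4.95-fold (3.81 to 6.51) above control in the low group, Mdm2 3.52-fold (2.78 to 4.51), Phlda3 3.10-fold (2.68 to 3.60) and Bax 2.04-fold (1.87 to 2.22). Fas in the low group had 55.1 CPM against 56.5 in the control, a ratio of 0.975 (0.728 to 1.31). In the low group Gadd45a was the 1 target with an interval below control, at 0.529 of its level (0.338 to 0.814). In the high group Gadd45a, at 0.496 (0.316 to 0.767), and Xpc, at 0.604 (0.376 to 0.958), had such intervals. In 19 of the 29 the levels ran in the order high, middle, low, and the share of all genes in that order is not given.

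**Figure D3:**
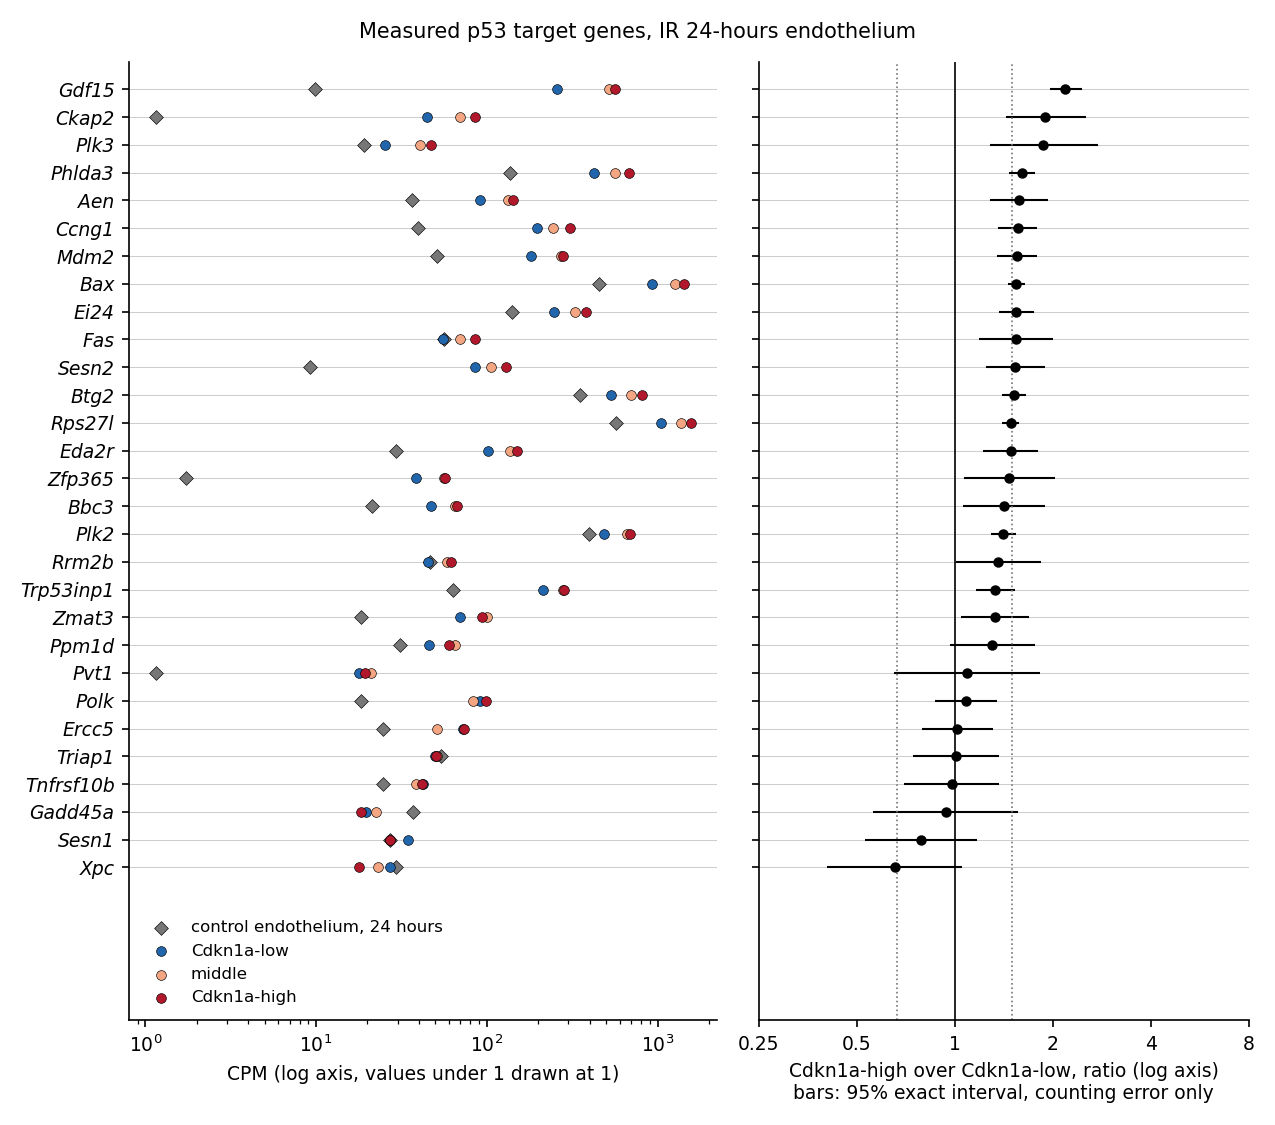
The 29 measured p53 targets: left, level in CPM (log axis) in the high, middle and low group and in the CON 24-hours endothelium; right, ratio of high to low group (log axis) with its 95% exact interval for counting error. Most low-group points lie right of the control points, and 12 targets reach the upper dotted line at 1.5-fold.

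Several genes outside the p53 list stood about as far from 1 as Gdf15 or further. Rnd1, a small GTPase gene, had 90.4, 55.9 and 28.1 CPM from high to low, a ratio of 3.21 (2.32 to 4.52), and kept 2.69 (1.54 to 4.88) in capillary-type cells. Ltc4s, the leukotriene C4 synthase gene, had 346.7, 278.2 and 143.5 CPM and a ratio of 2.42 (2.08 to 2.81), with 12.1 CPM in the control. Within capillary-type cells the ratio of Ltc4s lay closer to 1, at 1.57 (1.30 to 1.92). Gna15, a G protein subunit gene, had 46, 19 and 13 UMIs in the groups, a ratio of 3.42 (1.82 to 6.90), and 0 UMIs in the control endothelium. Ces2e, a carboxylesterase gene, was 2.46-fold higher (1.75 to 3.51), and its control level was 2.88 CPM against 27.6 in the low group. Esm1 and Adm, a proteoglycan and a vasodilator peptide of sprouting endothelium, were 2.59-fold (1.77 to 3.87) and 2.44-fold (1.72 to 3.51) higher. From high to low Esm1 had 56.6, 20.4 and 21.8 CPM and Adm 64.4, 29.8 and 26.4, so the middle group lay near the low group. Esm1 had UMIs in 7.38% of high and 3.83% of low cells, and 1 cell held 18.6% of its UMIs in those groups. The tip list as a whole had 2 of 10 measured genes past 1.5-fold higher, beside 4.48% of all genes, and a median of 0.19. Ntf3, the neurotrophin 3 gene, was 2.15-fold higher, just under Gdf15 (1.65 to 2.82). Where the control levels of Gna15, Ces2e and Ltc4s lay far below the low group, those of Esm1 (40.4 CPM), Adm (48.4) and Ntf3 (83.02) lay between the high and low groups.

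Immediate early genes, which code for short-lived transcription factors and which tissue dissociation can also induce, had the highest median of the lists with at least 3 measured members, apart from the Schwann cell markers. Of 17 measured, all 17 were above 0 (56.1% of all genes) and 11 past 1.5-fold higher (4.48%), with a median log2 ratio of 0.78. The median was 0.75 without other-type cells (12 of 16 past the fold beside 4.94%) and 0.59 in capillary-type cells (8 of 15 beside 5.04%). Jun had 1666, 1285 and 856.0 CPM, a ratio of 1.95 (1.83 to 2.07). Junb was 1.91-fold (1.73 to 2.10), Fos 1.85-fold (1.68 to 2.03) and Atf3 1.86-fold higher (1.49 to 2.33). These genes differed from the p53 targets in their place beside the control: the list summed to 8187, 6618 and 4740 CPM in the groups and 6387 in the control, which lay near the middle group. The heat shock genes Hspa1a and Hspa1b, whose control levels also lay between the groups, were 2.56-fold (2.18 to 3.02) and 2.00-fold (1.70 to 2.36) higher. Over that list 4 of 12 were past 1.5-fold and the median was 0.33. In a further split, added after values were seen, the 275 cells with the highest share of immediate early and heat shock UMIs were left out, and 275 cells were compared with 275. In it 15 of 26 p53 targets were past 1.5-fold higher beside 5.78% of 6801 genes, with a median of 0.64. The immediate early median was then 0.24 and the log2 ratio of Fos -0.21, in cells chosen for low levels of these genes.

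Vessel type differed along the split. Arterial genes were lower in the high group, with 7 of 11 measured past 1.5-fold lower beside 6.33% of all genes, and a median log2 ratio of -1.60. Gja4, the connexin 37 gene, had 16.1, 38.1 and 95.3 CPM from high to low, a ratio of 0.169 (0.110 to 0.252). Fbln5, an elastic fibre gene, had 0.184 (0.129 to 0.258), Sema3g 0.259 (0.198 to 0.334) and Gkn3 had 1 UMI against 71. Venous genes were lower too, with 6 of 8 past the fold and a median of -1.70. Lrg1 had 14.98, 31.3 and 72.3 CPM, a ratio of 0.207 (0.131 to 0.316), and the chemokine receptor gene Ackr1 had 1 UMI against 50. Gkn3 and Ackr1 reached the 50 UMIs of a measured gene through the low group alone. The arterial and venous counts and medians rest in part on such members. Without other-type cells 7 of 11 arterial (median -1.51) and 4 of 6 venous genes (median -1.33) were past the fold, beside 4.7% of all genes. Capillary genes lay slightly above 1, with a median of 0.32. Of 15, 10 were above 0 beside 56.1% of all genes, and 2 past 1.5-fold higher beside 4.48%. That median was 0.20 without other-type cells and -0.06 in capillary-type cells. There 0 of 15 were past 1.5-fold higher and 3 lower, beside 5.04% and 3.95% of all genes. Leading in all gated cells were Timp4 at 1.52 (1.34 to 1.71), the transcription factor gene Tcf15 at 1.51 (1.41 to 1.61) and Gpihbp1, the anchor of lipoprotein lipase, at 1.45 (1.37 to 1.54). The lowest capillary gene had a log2 ratio of -0.36. Summed, capillary genes had 26002, 26220 and 23426 CPM, all below the 42922 CPM of the control endothelium.

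Counted as cells, arterial-type cells, with at least 2 UMIs of 6 arterial genes at 2000 UMIs, made up 9.29% (6.52 to 12.7) of the high, 14.1% (10.7 to 18.1) of the middle and 22.4% (18.2 to 27.03) of the low group. Venous-type cells, with at least 2 UMIs of 4 venous genes, made up 3.83% (2.11 to 6.33), 5.43% (3.35 to 8.27) and 15.3% (11.8 to 19.4). Interferon-type cells, with at least 5 UMIs of interferon-induced genes, made up 35.8%, 36.96% and 35.5%. The capillary-type remainder made up 58.5% (53.2 to 63.6) of the high and 42.3% (37.2 to 47.6) of the low group. These classes are ranges of a score, and a cell can be in more than 1. The class shares restated as levels of Cdkn1a, the value that set the groups, describe the same cells: the median Cdkn1a per 10000 was 23.6 in 567 capillary-type, 21.8 in 397 interferon-type, 16.2 in 168 arterial-type and 13.6 in 90 venous-type cells. The summed p53 targets ranked likewise at the low end, with 7314 CPM (7214 to 7415) in capillary-type, 6316 (6152 to 6483) in arterial-type and 6100 (5871 to 6336) in venous-type cells. In CON 24-hours the same sums were 2840 (2717 to 2967), 2605 (2428 to 2793) and 2425 (2220 to 2644). Within the capillary-type cells without other-type RNA, ranked by Cdkn1a again, 21 of 24 p53 targets were above 0. The share of all genes above 0 in that split is not given. Past 1.5-fold higher were 4 of the 24, beside 5.04% of all genes. The median log2 ratio was 0.33 for these targets and 0.05 for all genes.

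The genes furthest lower in the high group included genes of mural and connective tissue cells. Many of the genes furthest lower stayed low without cells with other-type RNA, but most pericyte and smooth muscle markers were then not measured. Acta2, the smooth muscle actin gene, had 9, 99 and 332 UMIs from high to low, a ratio of 0.0262 (0.0119 to 0.0503). Without other-type cells it had 2 against 11 UMIs, a ratio of 0.168 (0.0181 to 0.770). Past 1.5-fold lower were 7 of 7 measured pericyte and 4 of 4 measured smooth muscle markers, beside 6.33% of all genes. Without the other-type cells, which are defined in part by these lists, 1 marker of each was measured. The pericyte one had a log2 ratio of 0.38 and the smooth muscle one -2.24. Lox, a collagen crosslinking enzyme gene, had 0 UMIs in the high and 60 in the low group, at least 20.7-fold lower against a floor of 3 UMIs, while the exact interval of its ratio reaches 0.0613. Without other-type cells Lox had 0 against 33 UMIs. Aspn and Vtn, a matrix and a pericyte gene, had ratios of 0.0819 and 0.0846 but 0.616 (0.128 to 2.60) and 0.925 (0.0670 to 12.8) without other-type cells. Other genes stayed low without those cells, though several had few UMIs left in capillary-type cells. Clu, the secreted chaperone clusterin, had 13 against 273 UMIs and a ratio of 0.0460 (0.0242 to 0.0800), and 0.0430 (0.0219 to 0.0764) without them, with 0 against 15 UMIs in capillary-type cells. Htra1, a serine protease gene, had 0.106 (0.0667 to 0.163) and then 0.0744, but 0.775 (0.187 to 3.05) on 5 against 6 UMIs in capillary-type cells. Sulf1, which edits heparan sulfate, had 0.106 (0.0546 to 0.188) and then 0.110, with 2 against 0 UMIs in capillary-type cells. Col5a2, a collagen V gene, had 0.0624 (0.0293 to 0.118) and then 0.0312, with 1 against 0 UMIs there. Npnt, a basement membrane ligand gene, had 0 against 56 UMIs, and 0 against 53 without other-type cells. Bmp4, a morphogen gene of vessels, had 0.328 (0.187 to 0.552) and then 0.302, and Ltbp4, a TGF-beta binding protein gene, 0.579 (0.517 to 0.648) and then 0.520. The senescence-associated secretory list had 8 of 14 past 1.5-fold lower beside 6.33% of all genes, and a median of -0.79. The list was led by Timp1 at 0 against 120 UMIs and Mmp2 at 14 against 120. Its summed level went the other way, with 6200 CPM (6085 to 6316) in the high and 5378 (5270 to 5488) in the low group. Without other-type cells 4 of 10 were lower beside 4.7% of all genes, and the median was -0.15. The median was 0.26 after thinning, 0.26 in cells with 0 UMIs of 5 other-type markers and 0.15 in capillary-type cells. The direction of this list therefore depends on the cells and the summary used.

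The Schwann cell genes went the other way through few cells. Their list had 3 of 3 measured members past 1.5-fold higher, beside 4.48% of all genes. In all, 2 cells of the high, 1 of the middle and 1 of the low group held 3 or more UMIs of the Schwann list at 2000 UMIs of depth. Without other-type cells 0 genes of the list were measured.

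RNA that marks barcodes of lower quality was higher in the low group. All 13 mitochondrially encoded genes were lower in the high group with a median log2 ratio of -0.43 and 0 of 13 past 1.5-fold, and their sum was 33650, 38354 and 44536 CPM. The control endothelium had 29989. Gm42418, a transcript that overlaps ribosomal RNA sequence, had 20931, 26261 and 42720 CPM, a ratio of 0.490 (0.484 to 0.496), and Lars2 had 0.594 (0.561 to 0.629). The ratio of Gm42418 was 0.454 without other-type cells and 0.416 in capillary-type cells. The part of these quality measures in the other differences was not tested. Ribosomal protein genes were near 1, with a median of 0.07 over 79.

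Most other lists had medians nearer 0, and their counts stand beside 4.48% of all genes past 1.5-fold higher and 6.33% lower. Interferon-induced genes had 3 of 21 higher, 1 lower and a median of 0.26, with Rsad2, an antiviral enzyme gene, at 1.84 (1.43 to 2.38). In capillary-type cells, a class chosen for few interferon-induced UMIs, Rsad2 had 0.223 (0.0748 to 0.557). MHC class I genes had a median of -0.03, and H2-Q6 and H2-Q7, near-identical relatives whose reads may be shared, were the 2 of 14 past the fold, both lower. Survival and caspase genes had 3 of 12 higher and a median of 0.24: Bcl2 was 1.74-fold (1.24 to 2.46), the apoptosome gene Apaf1 1.64-fold (1.28 to 2.12) and Mcl1 1.50-fold higher (1.36 to 1.66). Of the other cyclin-dependent kinase inhibitors Cdkn2d was 1.70-fold higher (1.19 to 2.46), Cdkn1c had 1.22 (1.09 to 1.37) and Cdkn1b 1.08 (0.874 to 1.35). Cell cycle genes had 2 of 9 measured members higher, Mcm7 with 42 and 18 UMIs and Cdk2 with 60 and 27, and a median of 0.16. Junction and caveolar genes had 0 of 14 past 1.5-fold and a median of 0.22. Klf2, a factor induced by blood flow, was 1.59-fold higher (1.47 to 1.71), while Edn1, the endothelin 1 gene, had 0.580 (0.421 to 0.794). Break repair genes had 1 higher and 1 lower of 11 and a median of -0.03.

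**Figure D4:**
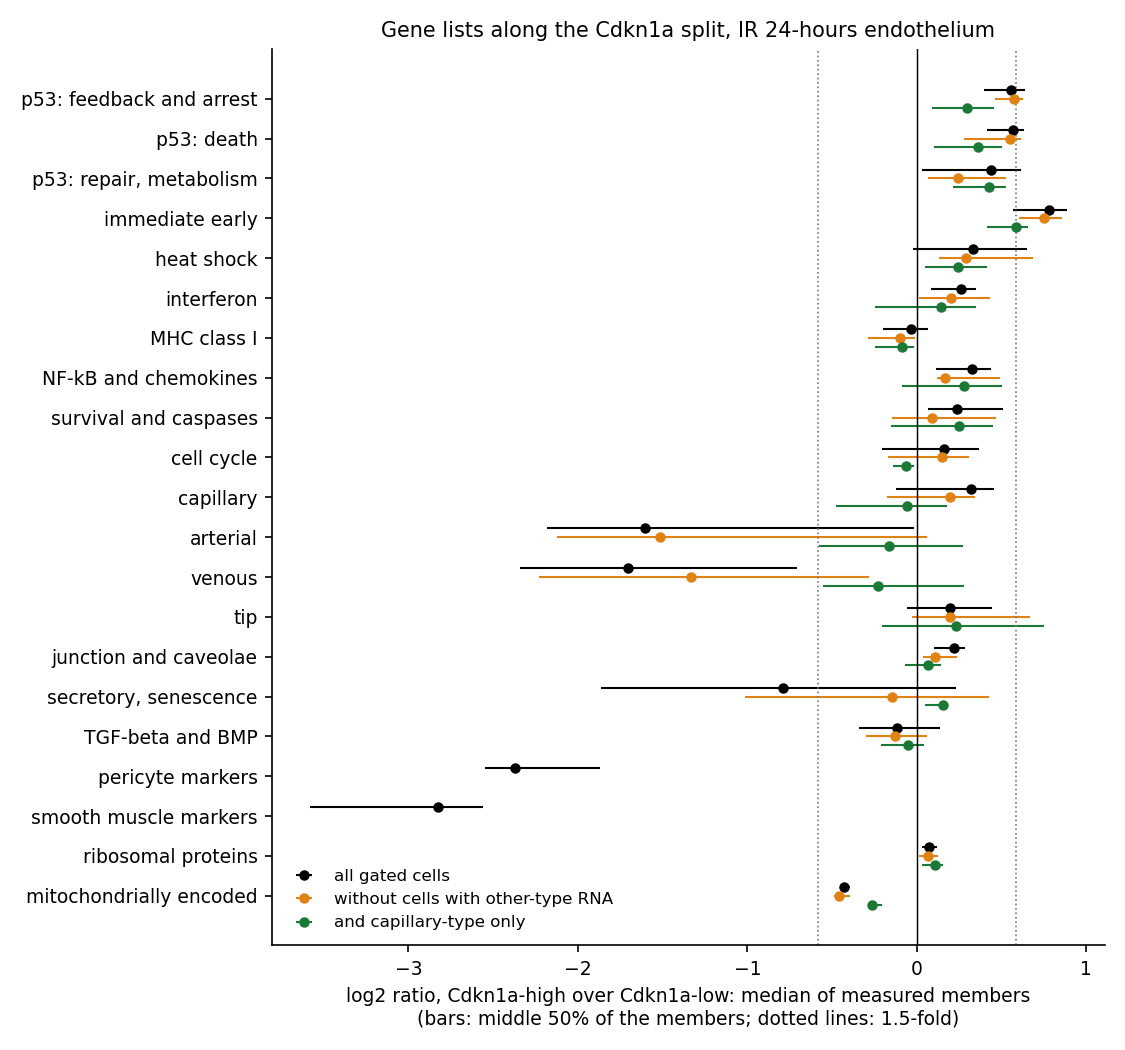
Median log2 ratio of high to low group for each gene list (points) with the middle 50% of its measured members (bars), in all gated cells, without cells with other-type RNA, and in the capillary-type cells of those; lists with fewer than 3 measured genes are not drawn. The p53 and immediate early lists stay above 0 in each of the 3 splits. The arterial and venous medians are -1.60 (11 genes) and -1.70 (8 genes) in all gated cells. In capillary-type cells they are -0.16 (4 genes) and -0.23 (4 genes). That class was chosen for few arterial and venous UMIs, so the smaller differences there are partly set by the choice of cells.

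Along the ranking some differences were graded and others sat at an end. In 6 steps of 183 or 184 cells from lowest to highest Cdkn1a, the summed p53 targets had 4761, 6226, 7117, 7856, 7887 and 8864 CPM. Bax had 786.2, 1045, 1235, 1311, 1413 and 1447 CPM, which climbed at every step with the largest gain between the lowest pair. Gdf15 had 176.5, 332.8, 551.3, 483.3, 533.6 and 594.9 CPM, a plateau from the third step on. Immediate early genes, with a dip at the fourth step, summed to 3520, 5732, 6758, 6516, 7636 and 8781 CPM. Arterial genes had 1680 CPM in the lowest and 817.4 in the highest step. Mgp, a matrix protein gene of arterial and connective tissue cells, had 1416 CPM in the lowest step and at most 309.3 in the others. The lowest step also had the lowest median depth, 3633.5 UMIs per cell against 4043 to 4391 in the others, and the highest mitochondrial sum.

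**Figure D5:**
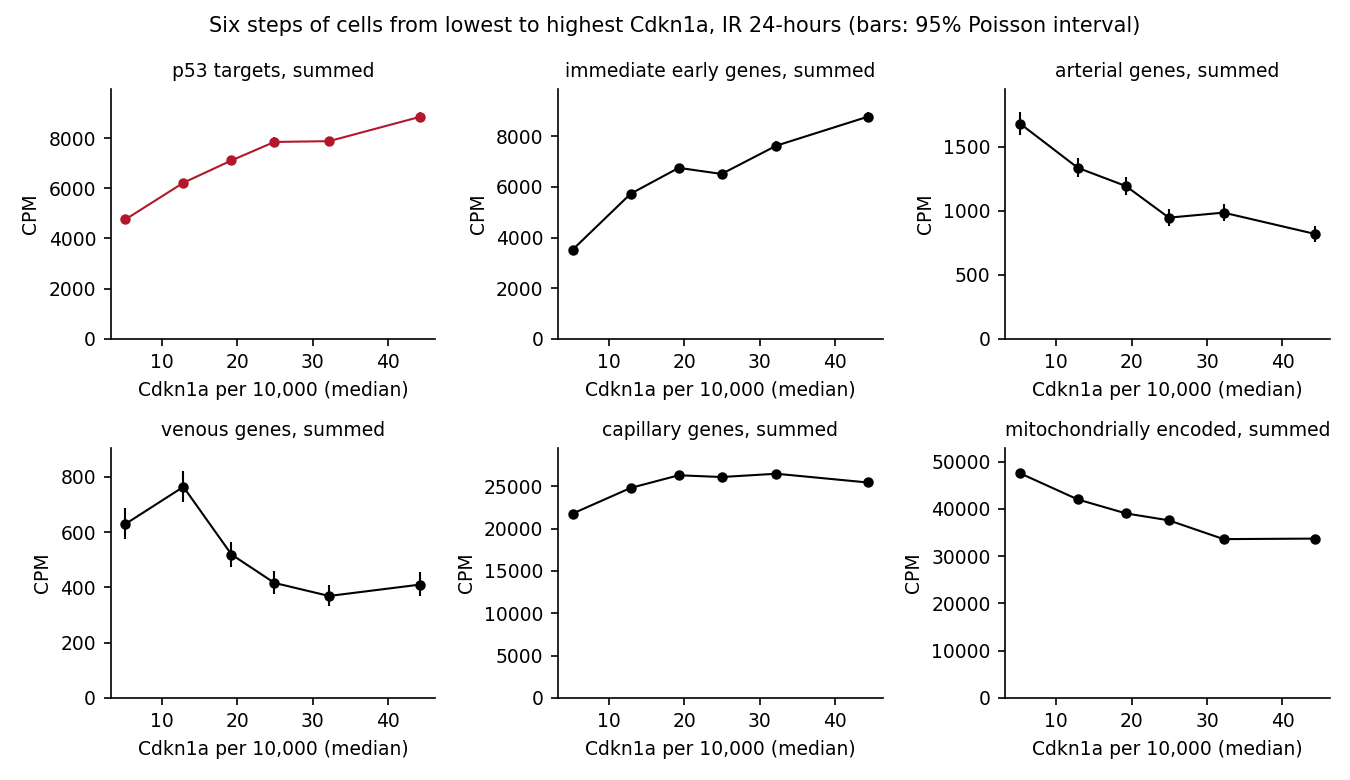
Summed level of 6 gene lists in CPM (vertical, from 0) in 6 equal steps of cells against the median Cdkn1a per 10,000 of the step (horizontal), with 95% Poisson intervals for counting error. The p53 targets climb from 4761 to 8864, the immediate early genes go from 3520 to 8781, and the arterial and mitochondrial sums are lower at the high end than at the low end.

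The same split was made inside each other library, whose cells had no part in choosing these groups. In IR 56-days, with 122 cells against 122, 20 of 20 measured p53 targets were above 0, beside 58.7% of all genes, and 16 were past 1.5-fold higher, beside 9.53% of 4165 genes higher and 6.58% lower. Their median log2 ratio was 1.04. Gdf15 differed 13.1-fold there, Phlda3 3.29-fold, Bax 2.67-fold and Mdm2 1.56-fold. In CON 24-hours, with 115 cells against 115, the high group reached down to 1 Cdkn1a UMI and the low group had 0 throughout. There 9 of 12 targets were past 1.5-fold higher beside 5.23% of 3921 genes (5.08% lower), with a median of 0.91 and 0.57 after thinning. Of 35 listed targets only these 12 had 50 UMIs over both groups, and some did so mainly through the high group. Ccng1 had 41 against 15 UMIs and Mdm2 37 against 18. The count therefore leans towards targets high in that group, and all genes passed the same minimum. Phlda3 differed 4.13-fold and Bax 2.43-fold. In CON 56-days, with 188 against 188, the high group itself included cells at 0, so the order of cells at 0 is that of the file. Of 15 targets 4 were past the fold beside 4.26% of 5310 genes (3.95% lower), with a median of 0.37, and of -0.04 after thinning. The immediate early median was 0.60 in CON 24-hours, 0.63 in CON 56-days and 0.25 in IR 56-days. Arterial genes were lower again in IR 56-days, with a median of -0.88, while CON 24-hours had -0.19 and CON 56-days 0.34. The mitochondrial median was below 0 in each: -0.51 in IR 56-days, -0.37 in CON 24-hours and -0.33 in CON 56-days. Across genes with at least 200 UMIs in both splits, the log2 ratios of IR 24-hours without other-type cells correlated with those of IR 56-days at Pearson 0.75 and Spearman 0.54 (839 genes), of CON 24-hours at 0.41 and 0.30 (715) and of CON 56-days at 0.31 and 0.17 (1314). Genes are not independent replicates, and these values describe the libraries only.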

How the data were processed

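Single-cell RNA libraries were made with the 3′ version 3 chemistry of 10x Genomics, 1 library per group. Per the submitters' processing notes, Cell Ranger 5.0.0 and mm10 were used. The authors deposited UMI counts for 32285 genes per barcode, which were used unchanged. The labels state at least 10000 sorted cells per library, and the deposited tables hold 1030 to 2763 barcodes. Libraries shared at most 3 barcodes, and 0 among gated cells. No doublet caller was run and free RNA was not removed.

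UMIs were summed per group of cells and scaled to the total without Cdkn1a. Ratios carry exact conditional binomial, levels exact Poisson and shares exact binomial intervals at 95%, for counting error only. A prior of 0.5 was added to each sum before taking log2, and counts past a fold use those values. Cdkn1a, the 4 gate genes and the 3 excluded genes were left out of counts. Genes needed 50 UMIs summed over both groups, so a gene can pass through 1 group alone, as Ackr1, Gkn3, Lox and Npnt did. Thinning drew 2000 UMIs per cell without replacement. Cells with other-type RNA had at least 3 thinned UMIs of a pericyte, smooth muscle, fibroblast, satellite, Schwann, T, B, macrophage, neutrophil, lymphatic or tendon list, or at least 10 of the muscle fibre or haemoglobin list.

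Named genes were all measured p53 targets, the 15 furthest higher and 15 furthest lower by the interval bound nearest 1, the 6 largest and 6 smallest ratios over 200 UMIs, and up to 4 leading members of a list. Rankings left out predicted, ribosomal protein, mitochondrial, haemoglobin, Y-linked and immune receptor genes, Xist, and genes with over 20% of UMIs in 1 cell. The members, the 46 lists and the rules were chosen with earlier results of these data known. Symbols repeated in the gene table (38) were not matched to lists. The scripts were tested on simulated data, and 16 other settings, and 3 more chosen after seeing the data, were run. Python 3.11.15, NumPy 2.4.6, SciPy 1.17.1, pandas 2.3.3 and Matplotlib 3.10.9 were used.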

Additional observations from a re-analysis of the deposited data

Results flagged for a closer look

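Between this split and the same split in another library, 9 named genes lay past 1.5-fold in opposite directions, each with a ratio interval beyond 1. The difference between the libraries was not tested, and no cause was tested. Fos, an immediate early gene, had a ratio of Cdkn1a-high to Cdkn1a-low cells of 1.85 in IR 24-hours and 0.471 in IR 56-days (47 against 104 UMIs). Vcam1, a leukocyte adhesion gene of venules, had 0.154 in IR 24-hours and 1.79 in IR 56-days (43 against 25 UMIs). Esm1 had 2.59 in IR 24-hours and 0.0566 in CON 56-days (3 against 49 UMIs). Edn1 had 0.580 in IR 24-hours and 1.63 in CON 56-days (97 against 55 UMIs). The other 5 are mural and red cell genes, all compared with CON 24-hours. Acta2 had 0.0262 in IR 24-hours and 3.41 there, Myl9 0.184 and 1.87, Hbb-bs 0.102 and 2.31, Hba-a2 0.163 and 4.71, and Hba-a1 0.167 and 4.93.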

How the results depend on the processing

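Under 16 other settings and 3 more chosen after seeing the data (without other-type cells, capillary-type cells of those, without the cells highest in stress genes) the p53 target median ran from 0.33 to 0.69. It was 0.69 with 275 cells compared with 275 and 0.64 without the cells highest in stress genes. The capillary median ran from -0.06 to 0.34. Higher and lower genes numbered 235 and 245 in cells thinned to 2000 UMIs, 632 and 1016 at a minimum of 20 summed UMIs, 83 and 96 at 200, and 44 and 213 at 2-fold. With 550 cells compared with 550, 230 were higher. Lower genes numbered 264 with 0 UMIs of 5 other-type markers, 223 in capillary-type cells, 331 without other-type cells and 189 with both. Of the other lists with at least 3 measured members 10 had a median past 1.5-fold, and 5 did after thinning, 2 with 0 UMIs of other-type markers, 4 without other-type cells and 2 in capillary-type cells of those, where fewer genes are measured. The p53 median of the split after thinning was 0.57 in CON 24-hours and -0.044 in CON 56-days. Some medians and genes changed direction. The secretory senescence median was 0.26 after thinning, 0.26 with 0 UMIs of other-type markers, 0.20 at 200 summed UMIs and 0.15 in capillary-type cells without other-type RNA. The venous median was 0.12 in capillary-type cells, a class chosen for few venous UMIs. The log2 ratio of Mbp was -0.61 with cells weighted equally, of Rsad2 -0.87 with 0 UMIs of other-type markers, of Hbb-bs 0.41 without other-type cells and 0.425 in their capillary-type cells, and of Ckap2 -0.013 there. Without the cells highest in stress genes Fos had -0.21, Rsad2 -0.35 and Ifit2 -0.36. The cause was not tested. No paired analysis was possible because each group has 1 library and the replicate number 1 pairs nothing. One library, no replicate and few UMIs per gene limit every value here.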
